A study of Mus musculus with 15 samples.

Results

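Fibroblasts from the TAF-el4 source were compared with fibroblasts from the TAF-tib48 source, both of which the labels call resistant. The members are the 3 arrays of each source, picked by title, 6 of the 15 arrays of the series, and all 31262 genes that passed a filter on dim probes. TAF is read here as tumour-associated fibroblast, since the title of the series speaks of fibroblasts from tumours refractory to treatment against VEGF, the main growth factor of blood vessels; the labels do not define the word resistant further. A T-cell lymphoma line of the mouse is called EL4, but the labels do not spell out either name, and tib48 is not explained. The other sources are TAF-tib42, also labelled resistant, and TAF-tib6 and NSF, labelled sensitive, with 3 arrays each. On every array the Cy5 dye carried the mouse fibroblast RNA and the Cy3 dye a commercial mouse reference RNA made for use as a common standard, so all sources share that reference and the dyes were never swapped. The labels give no strain, age, passage or treatment, and nothing in them tells separate animals or cultures from repeat arrays. The p-values therefore reflect the spread among 3 arrays of a source, pooled over all 5 sources. Part or all of that spread may be technical.

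Fibroblasts build and remodel the connective tissue matrix and take on tumour-specific programmes when they surround cancer cells. They secrete collagens, matrix glycoproteins and the enzymes that cross-link them, and they release growth factors, cytokines and prostaglandins that act on vessels, immune cells and the tumour cells themselves. In response to serum or growth factors they switch on immediate early genes, such as Fos and Egr1, through transcription factors that are already present in the cell, and transforming growth factor beta (TGF-beta) turns them towards contractile, matrix-producing cells.

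The values below are log2 ratios of fibroblast RNA to reference RNA, and differences are TAF-el4 minus TAF-tib48, so a difference of 1 is a 2-fold higher level in TAF-el4. A ratio compares 1 probe between sources and cannot rank one gene's level against another's. The median Cy5 intensity was 174.7 to 244.3 on the TAF-el4 arrays and 197.5 to 285.9 on the TAF-tib48 arrays, over a background of 52 to 54. Arrays of the same source correlated over all genes at 0.9603 to 0.9876, and TAF-el4 arrays correlated with TAF-tib48 arrays at 0.8745 to 0.8949. As a check of the cell type, the fibroblast genes Col1a1 and Col3a1 lay above the reference in both sources, at 2.26 ± 0.16 in TAF-el4 and 2.02 ± 0.24 in TAF-tib48 for Col1a1 and at 2.02 ± 0.15 in TAF-el4 and 1.995 ± 0.27 in TAF-tib48 for Col3a1 (SD, n = 3 each). The leukocyte gene Ptprc lay far below the reference, at -4.39 in TAF-el4 and -4.28 in TAF-tib48. These genes are single members of longer lists, and the Col1a1 spot was saturated on every array of both sources. Of 22 fibroblast markers, 2 lay below -1 in each source. Their list mean per array was 0.83 to 0.86 in TAF-el4 and 0.61 to 0.93 in TAF-tib48. Of 22 lymphocyte and lymphoma markers, 8 lay below -1 in TAF-el4 and 9 in TAF-tib48.

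Between TAF-el4 and TAF-tib48, limma called 7447 of 31262 genes at an adjusted p under 0.05, or 23.8% of those tested. Of these, 4405 were higher in TAF-el4 (14.1% of the genes tested) and 3042 were lower (9.73%), so that 59.2% of the calls were higher, or 69.3% of 5350 calls when each array was centred on its median in place of loess. Most differences were small: the median standard error was 0.051, and 193 of the called genes (0.617%) differed by at least 2-fold, 134 of them higher in TAF-el4 (0.429%) and 59 lower (0.189%). The arrays of both sources did not overlap for 12115 genes (38.8%). The median difference over all genes was 0.007. In RNA from whole cultures, fewer cells that make a transcript and less of it per cell cannot be told apart.

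The means of the 3 other sources were set beside those of TAF-el4 and TAF-tib48. Of the 134 genes at least 2-fold higher in TAF-el4, the NSF mean lay closer to TAF-el4 for 114 and closer to TAF-tib48 for 20. The TAF-tib6 mean lay closer to TAF-el4 for 93 and closer to TAF-tib48 for 41. The TAF-tib42 mean, from the other resistant source, lay closer to TAF-el4 for 39 and closer to TAF-tib48 for 95. Of the 59 genes at least 2-fold lower in TAF-el4, NSF lay closer to TAF-el4 for 40, TAF-tib6 for 42 and TAF-tib42 for 32. TAF-tib48 had the highest or lowest mean of all 5 sources for 86 of the 134 higher genes and 44 of the 59 lower ones, and TAF-el4 for 59 and 32. Genes picked for a large difference between both sources tend to have them at the extremes. The same counts were not made over all genes.

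Replicate 3 of TAF-tib48 stood apart from the other TAF-tib48 arrays. Among the 193 genes, it was the TAF-tib48 array nearest to the TAF-el4 mean for 115, replicate 2 for 56 and replicate 1 for 22. Without it 6329 genes were called and 206 of them differed at least 2-fold, and all 193 genes above were still called. The slides also fell into 3 runs of consecutive numbers, which hold 5 slides each: replicates 1 and 2 of TAF-el4 lay in the run of NSF, replicates 2 and 3 of TAF-tib48 in the run of TAF-tib6, and TAF-el4 replicate 3 and TAF-tib48 replicate 1 in the run of TAF-tib42. With the run as a block, a fit that rests on those last 2 arrays for this comparison, 2798 genes were called, 219 of them at least 2-fold, and 191 of the 193 genes kept their call.

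The genes highest in TAF-el4 include a chemokine, the starter of blood coagulation, a hormone-inactivating enzyme, a matrix glycoprotein and ribosomal protein paralogues. The highest and lowest genes were picked among those whose arrays did not overlap, so that lack of overlap is no finding about them. The largest difference was that of Rpl39l, a paralogue of the ribosomal protein gene Rpl39, whose log2 ratio was 1.06, 0.99 and 1.06 on the TAF-el4 arrays, against -3.18, -2.88 and -2.53 on the TAF-tib48 arrays. The groups lie far apart, a difference of 3.90 (SE 0.103, adjusted p = 1.8e-14), although a second and dimmer probe of Rpl39l differed by only 0.83. Rps4l, a paralogue of the ribosomal protein gene Rps4x, was 6.01-fold higher, at 3.57 ± 0.10 in TAF-el4 and 0.98 ± 0.12 in TAF-tib48 (SD, n = 3 each). TAF-tib42 lay with TAF-tib48 for both genes, at -3.08 for Rpl39l and 0.08 for Rps4l, while TAF-tib6 and NSF lay between 0.83 and 3.56. Probes of such paralogues may pick up RNA of their near-identical relatives.

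Cxcl14, a chemokine secreted by stromal fibroblasts in several tumours, had log2 ratios of 3.79, 3.89 and 3.94 on the TAF-el4 arrays, against 0.37, 0.30 and 0.59 on the TAF-tib48 arrays. This is a 10.9-fold difference, 3.45 (SE 0.077, adjusted p = 4.6e-15), and TAF-tib42 at 0.15 again lay with TAF-tib48. F3 encodes tissue factor, the cell-surface protein that starts coagulation, and had 3.27, 3.27 and 3.19 on the TAF-el4 arrays, against -0.18, -0.20 and 0.99 on the TAF-tib48 arrays. Replicate 3 of TAF-tib48 was higher than the other TAF-tib48 arrays but still well below TAF-el4, and the difference of 3.04 (SE 0.199, adjusted p = 2.2e-09) was matched by a second probe at 2.92. The same array was the highest of TAF-tib48 for Dio3, the deiodinase that inactivates thyroid hormone, with 4.53, 4.51 and 4.61 on the TAF-el4 arrays, against 1.42, 1.07 and 2.70 on the TAF-tib48 arrays, and for Cpxm1, a secreted protein of the carboxypeptidase family, with 3.04, 2.88 and 2.73 on the TAF-el4 arrays, against -0.03, -0.17 and 1.39 on the TAF-tib48 arrays. The differences were 2.82 (SE 0.247, adjusted p = 1.0e-07) for Dio3 (1.98 with the scanner's own log ratio and 4.55 with the Cy5 channel alone) and 2.49 (SE 0.249, adjusted p = 5.7e-07) for Cpxm1. For F3, Dio3 and Cpxm1 the SD was 0.684, 0.855 and 0.862 in TAF-tib48, beside 0.048, 0.051 and 0.154 in TAF-el4. Since the fit pools the spread of all 5 sources, the SE and p-value of such genes understate the spread of TAF-tib48.

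Gjb2, the gap junction protein connexin 26, was 5.83-fold higher in TAF-el4, at 3.94 ± 0.12 in TAF-el4 and 1.39 ± 0.28 in TAF-tib48 (SD, n = 3 each), while its second, dimmer probe differed by 0.18. Fabp4, a fatty acid carrier best known from adipocytes, had 2.85, 2.75 and 2.97 on the TAF-el4 arrays, against 0.41, 0.41 and 0.51 on the TAF-tib48 arrays, a difference of 2.41 (SE 0.06, adjusted p = 1.1e-14), and its other probes differed by 3.02 and 0.72. Alpl, the alkaline phosphatase of bone and of other tissues, had 0.97, 1.06 and 0.91 on the TAF-el4 arrays, against -1.39, -1.28 and -1.06 on the TAF-tib48 arrays, and TAF-el4 was the highest and TAF-tib48 the lowest of the 5 sources for it. Its difference was 2.22 (SE 0.066, adjusted p = 7.4e-14).

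**Figure D1:**
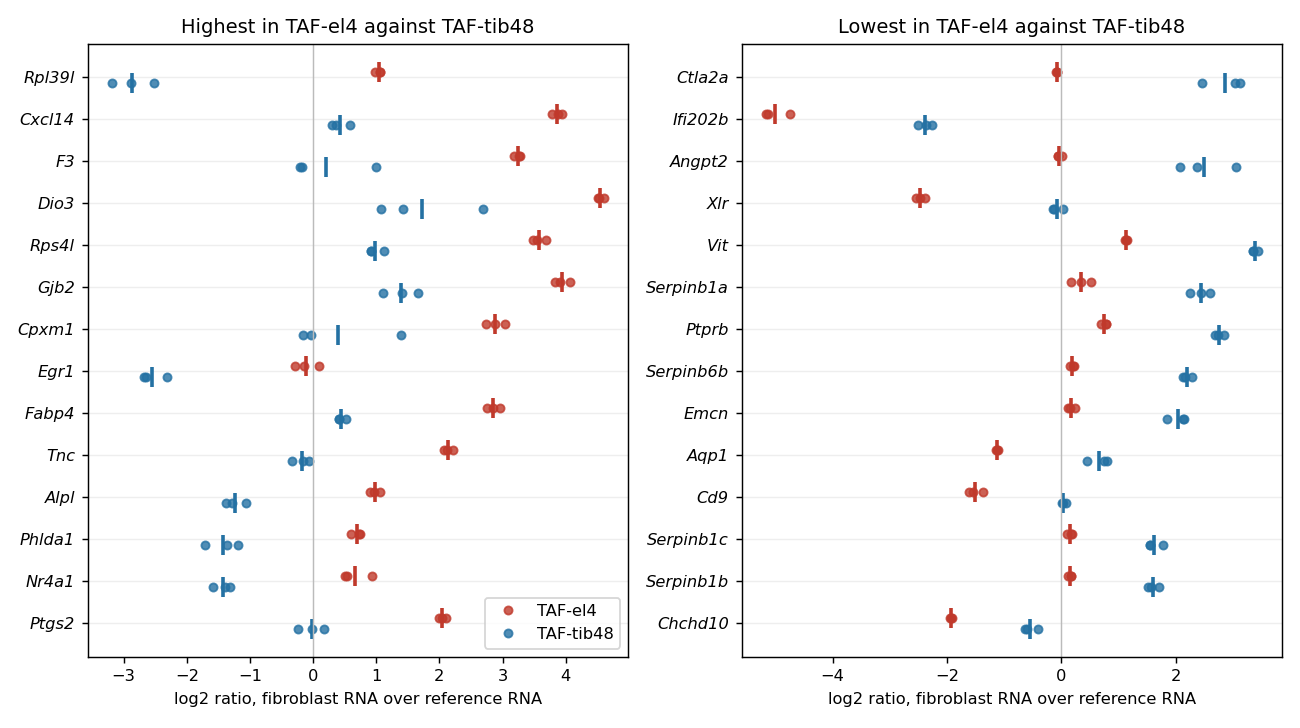
Log2 ratio of fibroblast RNA over reference RNA (horizontal axis) for genes among the 15 highest and the 15 lowest in TAF-el4 against TAF-tib48, with 1 point per array and a tick at the mean of 3 arrays. Only genes without overlapping arrays could be picked for display, and the TAF-tib48 points spread widest for F3, Dio3, Cpxm1 and Angpt2.

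The genes lowest in TAF-el4 include Angpt2, Ptprb and Emcn, known from blood vessels and given with the endothelial markers, serine protease inhibitors of the serpin B clade and an interferon-activated gene. Ctla2a, an inhibitor of cysteine proteases, had log2 ratios of -0.07, -0.07 and -0.09 on the TAF-el4 arrays, against 3.03, 3.12 and 2.46 on the TAF-tib48 arrays. It was 7.73-fold lower in TAF-el4, with a difference of -2.95 (SE 0.113, adjusted p = 5.4e-12), and a probe described as its relative ctla-2-beta differed by -2.36. Ifi202b, of the interferon-activated p200 family of DNA-binding proteins, was low against the reference in both sources, with -5.17, -5.13 and -4.74 on the TAF-el4 arrays, against -2.51, -2.37 and -2.27 on the TAF-tib48 arrays. Its difference was -2.63 (SE 0.089, adjusted p = 3.5e-13), and the source means ran from -5.14 in NSF and -5.03 in TAF-tib42, close to TAF-el4, up to -0.30 in TAF-tib6.

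The 4 serpins were all lowest in TAF-el4 and highest in TAF-tib48 among the 5 sources. Serpinb1a, an inhibitor of neutrophil elastase, had 0.51, 0.34 and 0.17 on the TAF-el4 arrays, against 2.60, 2.25 and 2.45 on the TAF-tib48 arrays, a difference of -2.09 (SE 0.092, adjusted p = 1.2e-11). Serpinb6b differed by -1.99 (SE 0.064, adjusted p = 2.0e-13). Serpinb1c differed by -1.48, with a second probe at -1.44, and Serpinb1b by -1.45, with a second and dimmer probe at 0.13. These genes are close relatives, so their probes may share signal.

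Xlr, an X-linked gene that was named for its regulation in lymphocytes, was 5.21-fold lower in TAF-el4, with -2.48, -2.54 and -2.38 on the TAF-el4 arrays, against 0.03, -0.12 and -0.15 on the TAF-tib48 arrays. A second probe differed by -2.003. TAF-tib42, at -0.06, lay with TAF-tib48, while TAF-tib6 at -2.73 and NSF at -3.13 lay nearer TAF-el4. Vit, the matrix protein vitrin, also had TAF-tib42 (2.94) near TAF-tib48, and differed by -2.25 (SE 0.057, adjusted p = 1.1e-14). Cd9, a tetraspanin of the cell surface, differed by -1.55 (SE 0.055, adjusted p = 6.4e-13), and Chchd10, a mitochondrial protein, by -1.38 (SE 0.07, adjusted p = 6.6e-11).

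Immediate early genes, the first to answer a growth signal, were mostly higher in TAF-el4. Of 27 tested, 19 were called higher in TAF-el4 and 2 lower, and 8 were at least 2-fold higher; the median difference was 0.485, against 0.007 over all genes, of which 14.1% were called higher and 9.73% lower. Egr1, a zinc finger transcription factor induced within minutes by growth factors, had 0.09, -0.15 and -0.29 on the TAF-el4 arrays, against -2.65, -2.31 and -2.68 on the TAF-tib48 arrays. The arrays of both sources lay more than 2 log2 units apart, a 5.4-fold difference of 2.43 (SE 0.115, adjusted p = 2.9e-11). Its relative Egr2, another zinc finger factor, had 2.04, 1.83 and 1.62 on the TAF-el4 arrays, against 0.09, 0.29 and -0.30 on the TAF-tib48 arrays, a difference of 1.80 (SE 0.134, adjusted p = 1.1e-08), with wider spread in both sources but no overlap.

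The orphan nuclear receptor Nr4a1 had 0.93, 0.54 and 0.51 on the TAF-el4 arrays, against -1.40, -1.58 and -1.32 on the TAF-tib48 arrays. Phlda1, a cytoplasmic protein induced by growth factors, had 0.74, 0.60 and 0.73 on the TAF-el4 arrays, against -1.36, -1.197 and -1.71 on the TAF-tib48 arrays. Fos, a subunit of the transcription factor AP-1, had -1.25, -1.68 and -1.73 on the TAF-el4 arrays, against -3.33, -3.30 and -3.19 on the TAF-tib48 arrays. The differences were 2.09 (SE 0.14, adjusted p = 2.9e-09) for Nr4a1, 2.11 (SE 0.086, adjusted p = 4.3e-12) for Phlda1 and 1.72 (SE 0.117, adjusted p = 3.6e-09) for Fos. Further members at least 2-fold higher were Ier2 (1.45, with a second and dimmer probe at 0.26), Ier3 (1.25) and the AP-1 subunit Junb (1.15). The lower members were the AP-1 subunit Jund and the transcription factor Klf4, at -0.28 and -0.53.

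Across the 5 sources the pattern of these genes was not that of the labels resistant and sensitive. Egr1 averaged -0.11 in TAF-el4, -2.55 in TAF-tib48, -3.16 in TAF-tib42, -2.01 in TAF-tib6 and -0.66 in NSF. Fos was highest in NSF, at -0.83, followed by TAF-el4 at -1.55, TAF-tib6 at -2.06, TAF-tib42 at -3.02 and TAF-tib48 at -3.27. The list mean per array was 0.14 to 0.26 on the TAF-el4 arrays and -0.54 to -0.50 on the TAF-tib48 arrays. With the slide run as a block 17 members were still called higher and 1 lower.

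**Figure D2:**
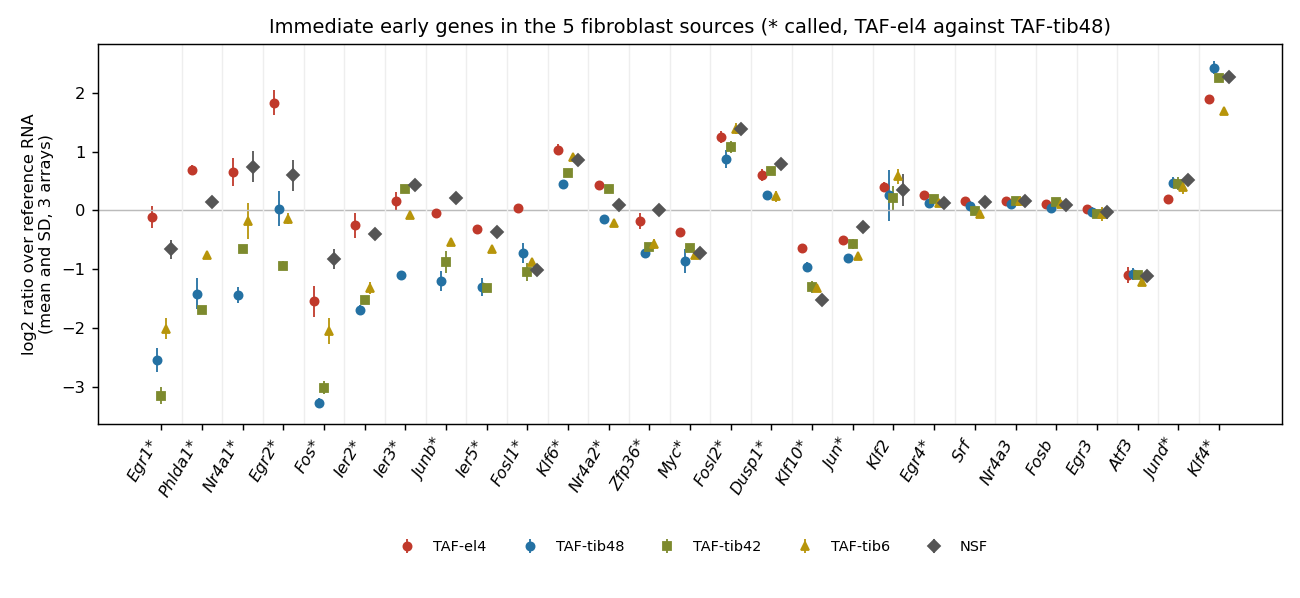
Log2 ratio over reference RNA (vertical axis, mean and SD of 3 arrays) of the 27 immediate early genes in the 5 sources, ordered from the most higher to the most lower in TAF-el4 against TAF-tib48. TAF-el4 and NSF lie above TAF-tib48, TAF-tib42 and TAF-tib6 for Egr1, Phlda1, Nr4a1, Fos, Ier2, Junb and Ier5.

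Many immediate early promoters carry the CArG box, the binding sequence of serum response factor, so the 250 bases before the start of each gene were searched for it on both strands in the RefSeq promoter windows of assembly GRCm38.p6. Windows were given for 20 of the 27 genes, and 3 of them held an exact CArG box, Egr2, Srf and Zfp36, against 1.62% of the 27025 genes with a window. The stretches around the match in the 2 of these genes that were called higher are shown 5′ to 3′ on the strand of the gene, with the CArG box in capitals. Egr2 lies on the plus strand at chr10:67537479-67537518 and Zfp36, an RNA-binding protein that destabilises cytokine messages, on the minus strand at chr7:28379262-28379301. Neither window holds the interferon motif searched further down.
Egr2: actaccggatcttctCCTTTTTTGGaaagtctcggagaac
Zfp36: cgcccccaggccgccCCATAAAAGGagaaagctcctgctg
Zfp36 itself differed by 0.54 (SE 0.061, adjusted p = 2.6e-06), from log2 ratios of -0.02, -0.26 and -0.27 on the TAF-el4 arrays, against -0.75, -0.77 and -0.66 on the TAF-tib48 arrays.

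The epidermal growth factor (EGF) family list, which holds ligands, receptors and the inhibitors that the pathway induces against itself, had 9 of 18 members higher in TAF-el4 and 1 lower, with a median of 0.11. Here and for the lists below, the shares to set beside such counts are those of all genes, 14.1% called higher and 9.73% lower. Among the receptors, Egfr had 1.01, 0.84 and 0.84 on the TAF-el4 arrays, against -0.76, -0.67 and -0.10 on the TAF-tib48 arrays, a difference of 1.40 (SE 0.113, adjusted p = 3.2e-08), but its 3 dimmer probes differed by 0.32, 0.10 and 0.16. Among the ligands, Hbegf differed by 0.56 (SE 0.08, adjusted p = 3.9e-05). Among the inhibitors, Dusp6, the phosphatase that shuts off ERK and is itself induced by ERK, had -1.32, -1.39 and -1.31 on the TAF-el4 arrays, against -3.14, -2.84 and -3.05 on the TAF-tib48 arrays. Its sources did not overlap, with a difference of 1.67 (SE 0.067, adjusted p = 3.5e-12), and Errfi1, an inhibitor of the EGF receptor, differed by 0.72 (SE 0.055, adjusted p = 1.4e-08). Like Egr1, Dusp6 was lowest in TAF-tib42, at -3.49, and NSF at -1.28 lay beside TAF-el4.

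Of the cytokines and cytokine receptors, 14 of 32 were higher in TAF-el4 and 2 lower (median 0.11). The ligands included Il6, an inflammatory cytokine, with 2.95, 2.85 and 2.62 on the TAF-el4 arrays, against 1.60, 1.31 and 1.82 on the TAF-tib48 arrays, and Csf1, the growth factor of macrophages, with 2.56, 2.69 and 2.73 on the TAF-el4 arrays, against 1.495, 1.54 and 1.33 on the TAF-tib48 arrays. Neither overlapped between the sources, and the differences were 1.23 (SE 0.1, adjusted p = 3.8e-08) for Il6 and 1.204 (SE 0.062, adjusted p = 9.1e-11) for Csf1. Il6 was nonetheless lower in both than in the other sources, which averaged 4.24 in TAF-tib42, 3.72 in TAF-tib6 and 5.15 in NSF, whereas Csf1 was highest in TAF-el4. Among the receptors, Il1r1 for interleukin 1 differed by 1.11 (SE 0.087, adjusted p = 2.3e-08) and Il11ra1 for interleukin 11 by 1.16 (SE 0.073, adjusted p = 1.3e-09), and the ligand Il11 by 0.81 (SE 0.039, adjusted p = 2.9e-11).

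Chemokines split in the same way, with 9 of 26 higher in TAF-el4 and 2 lower (median 0.11), or 42.3% called against 23.8% of all genes. After Cxcl14 came Ccl2, which attracts monocytes, with 0.45, 0.62 and 0.53 on the TAF-el4 arrays, against -0.43, -0.38 and -0.21 on the TAF-tib48 arrays, a difference of 0.88 (SE 0.097, adjusted p = 2.0e-06). As with Il6, both sources lay below TAF-tib42, TAF-tib6 and NSF, which had Ccl2 at 2.18, 2.06 and 2.40. Ccl27a differed by 0.63 and Ccl9 by -0.61.

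Acute phase proteins and complement genes were mixed. Calls in either direction made up 31.2% and 38.1% of them, against 23.8% of all genes. Of 16 acute phase genes, 4 were higher and 1 lower, and the largest, the haemoglobin-binding protein Hp, shows the weight of 1 array: its log2 ratio was 1.91, 1.80 and 1.49 on the TAF-el4 arrays, against -1.16, -1.05 and 1.58 on the TAF-tib48 arrays. The sources overlap, because replicate 3 of TAF-tib48 lay inside the TAF-el4 range while the other 2 lay below 0, and the difference of 1.94 (SE 0.44, adjusted p = 0.00309) becomes 2.84 without that array. The SD of Hp was 0.215 in TAF-el4 and 1.555 in TAF-tib48, a spread that the SE pooled over all sources understates. Saa3 (serum amyloid A3) had -0.43, -0.70 and -0.89 on the TAF-el4 arrays, against -2.09, -2.04 and -0.98 on the TAF-tib48 arrays, with the same array nearest to TAF-el4, and its difference of 1.03 (SE 0.255, adjusted p = 0.00602) was not called with the slide run as a block. Ptx3, a pattern recognition protein, differed by 0.92 (SE 0.115, adjusted p = 9.0e-06). Among 21 complement genes, 5 were higher and 3 lower, led by the collectin Colec12 at 1.997 (SE 0.115, adjusted p = 4.1e-10), with a second probe at 1.55.

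The list of prostaglandin synthesis and receptors was split, with 7 of 23 members higher in TAF-el4, 4 lower and 12 not called, and its median of 0.003 was near that of all genes (0.007). Pla2g4a, the phospholipase that frees arachidonic acid, differed by 0.76 (SE 0.052, adjusted p = 3.8e-09), with a second probe at 0.73. Ptgs2, the inducible cyclooxygenase, had 2.11, 1.99 and 2.04 on the TAF-el4 arrays, against 0.17, -0.01 and -0.23 on the TAF-tib48 arrays. Its arrays lay apart by more than 1.8 log2 units, a 4.2-fold difference of 2.07 (SE 0.078, adjusted p = 1.4e-12), and its second probe differed by 1.99. Of the terminal synthases, Ptgis for prostacyclin differed by 1.82 (SE 0.067, adjusted p = 1.0e-12) and Ptges for prostaglandin E2 by 1.11 (SE 0.052, adjusted p = 2.6e-11), from 0.46, 0.53 and 0.42 on the TAF-el4 arrays, against -0.72, -0.63 and -0.58 on the TAF-tib48 arrays for Ptges. Ptgs1, the constitutive cyclooxygenase, was lower, at -0.45 (SE 0.053, adjusted p = 3.4e-06). TAF-el4 had the highest mean of the 5 sources for Ptgs2, Ptges and Pla2g4a, and TAF-tib48 the lowest.

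In the TGF-beta and bone morphogenetic protein (BMP) list, 20 of 45 genes were higher in TAF-el4 and 4 lower (median 0.06). Among the ligands, Inhba, the subunit of activin A, had 2.37, 2.43 and 2.47 on the TAF-el4 arrays, against 1.41, 1.53 and 1.17 on the TAF-tib48 arrays, a difference of 1.05 (SE 0.068, adjusted p = 2.1e-09) with no overlap. Ltbp2, a latent TGF-beta binding protein of elastic fibres, differed by 1.62 (SE 0.086, adjusted p = 3.2e-10), and Fst, the activin antagonist follistatin, by 1.40 (SE 0.094, adjusted p = 3.2e-09). Among the targets, Id1 differed by 1.18 (SE 0.083, adjusted p = 5.6e-09), with a second probe at 1.28, and the feedback inhibitor Smad7 by 1.003 (SE 0.05, adjusted p = 5.4e-11). The list mean per array was 0.48 to 0.49 in TAF-el4 and 0.21 to 0.25 in TAF-tib48, so no arrays overlapped.

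Matrix glycoproteins and proteoglycans were higher in TAF-el4 for 19 of 50 genes and lower for 8, with 9 at least 2-fold higher and 3 at least 2-fold lower (median 0.04). Tnc, the glycoprotein tenascin C of wounds and tumour stroma, had 2.08, 2.12 and 2.21 on the TAF-el4 arrays, against -0.33, -0.06 and -0.16 on the TAF-tib48 arrays. It was 4.99-fold higher in TAF-el4, with a difference of 2.32 (SE 0.072, adjusted p = 1.3e-13), and its second, dimmer probe differed by 0.69. Ccn2, connective tissue growth factor, had 3.56, 3.85 and 3.88 on the TAF-el4 arrays, against 1.86, 1.83 and 1.40 on the TAF-tib48 arrays, and its spot was saturated on 1 TAF-el4 array. The sources were separate, with a difference of 2.07 (SE 0.095, adjusted p = 2.2e-11), and the related Ccn1 differed by 1.26 (SE 0.075, adjusted p = 6.3e-10).

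Spp1, osteopontin, lay well below the reference in both sources yet was 3.83-fold higher in TAF-el4, with -3.27, -2.98 and -2.99 on the TAF-el4 arrays, against -4.97, -5.18 and -4.90 on the TAF-tib48 arrays. Thbs1, the antiangiogenic glycoprotein thrombospondin 1, differed by 1.49 (SE 0.078, adjusted p = 9.7e-11), with other probes at 1.28 and 0.95, and the collagen-binding proteoglycan Fmod by 1.43 (SE 0.101, adjusted p = 6.2e-09). Efemp1, Matn2, Ccn3 and Vit led the lower members, at -1.10, -1.25, -0.97 and -2.25.

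Among 23 collagens, 9 were higher and 5 lower in TAF-el4 (median 0.10), or 60.9% called against 23.8% of all genes. Col8a1 differed by 1.35 (SE 0.074, adjusted p = 2.0e-10) and Col7a1, of anchoring fibrils, by 1.203 (SE 0.057, adjusted p = 2.7e-11). The lower members included the basement membrane zone collagens Col15a1 and Col18a1. Col15a1 had 0.11, 0.16 and 0.11 on the TAF-el4 arrays, against 1.58, 1.38 and 1.38 on the TAF-tib48 arrays, a difference of -1.32 (SE 0.064, adjusted p = 3.2e-11), but a second and dimmer probe differed by -0.18. Col18a1, the precursor of the vessel inhibitor endostatin, differed by -1.17 (SE 0.085, adjusted p = 7.7e-09), with a second probe at -0.84. The brightest probe of the main fibrillar collagen gene Col1a1 was not called, with a difference of 0.23 (SE 0.098, adjusted p = 0.0964), and its spot was saturated on all 6 arrays, which limits what its ratio can show. Its 2 dimmer probes were both higher in TAF-el4, by 0.47 (limma, unadjusted p = 2.8e-07) and 0.22 (unadjusted p = 0.0108).

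Enzymes that cross-link or modify collagen were higher in TAF-el4 for 9 of 19 genes and lower for 2 (median 0.09). Lox, the lysyl oxidase that cross-links collagen and elastin, had 2.93, 2.88 and 2.96 on the TAF-el4 arrays, against 1.52, 1.49 and 1.78 on the TAF-tib48 arrays, and TAF-el4 was the highest and TAF-tib48 the lowest of the 5 sources. Its difference was 1.32 (SE 0.074, adjusted p = 2.9e-10), and its relative Loxl2 differed by 0.60 (SE 0.092, adjusted p = 7.2e-05). P4ha2, a proline hydroxylase of collagen, differed by 0.85 (SE 0.091, adjusted p = 2.1e-06). Tgm2, a transglutaminase, differed by 0.84 (SE 0.058, adjusted p = 4.7e-09) on its brightest probe but by -0.02 and -0.09 on 2 dimmer ones, and Pcolce2, which speeds procollagen cleavage, was lower at -1.19 (SE 0.065, adjusted p = 1.9e-10).

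Basement membrane genes leaned the other way, with 3 of 15 higher in TAF-el4 and 7 lower (median -0.14). The laminin chain Lama4 was 2.54-fold higher, with other probes at 1.23 and 0.45, and Lamb1 differed by 0.75 (SE 0.088, adjusted p = 5.7e-06) on 2 TAF-el4 arrays, since its spot on the other one was left out as an outlier. The laminin chain Lamc1 was lower, at -0.48 (SE 0.054, adjusted p = 2.4e-06). Without TAF-tib48 replicate 3 the counts were 4 higher and 4 lower, with a median of -0.03, and without TAF-el4 replicate 2 they were 2 and 4.

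Among matrix proteases and their inhibitors, 10 of 39 were higher and 7 lower in TAF-el4, or 4 lower without TAF-tib48 replicate 3. With all arrays 43.6% were called, against 23.8% of all genes. Serpinb2, an inhibitor of plasminogen activators, had 1.23, 1.17 and 1.25 on the TAF-el4 arrays, against 0.01, 0.01 and -0.06 on the TAF-tib48 arrays, a difference of 1.23 (SE 0.042, adjusted p = 4.1e-13). The activator urokinase Plau differed by 0.61 (SE 0.053, adjusted p = 9.0e-08) and its receptor Plaur by 0.61 (SE 0.057, adjusted p = 2.1e-07), with a second and dimmer probe of each at 0.02 and 0.37. Timp1, an inhibitor of metalloproteases, differed by 0.92 (SE 0.106, adjusted p = 3.4e-06), with its spot saturated on all 3 TAF-el4 arrays and its other probes at 1.02 and 0.92, and Mmp11, a stromal metalloprotease, was lower at -1.09 (SE 0.079, adjusted p = 7.7e-09).

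Integrins and adhesion molecules were higher for 10 of 29 genes and lower for 6. Calls made up 55.2% of them and 59.1% of the contractile genes below, against 23.8% of all genes. Itga11, the collagen-binding integrin of fibroblasts, had 4.08, 4.01 and 3.79 on the TAF-el4 arrays, against 2.35, 1.86 and 2.95 on the TAF-tib48 arrays, a difference of 1.58 (SE 0.17, adjusted p = 1.5e-06) with wide spread in TAF-tib48. Itga6 and Itgb4, which pair as a laminin receptor, were lower at -0.75 (SE 0.052, adjusted p = 4.5e-09) and -0.83 (SE 0.057, adjusted p = 3.7e-09), with other Itgb4 probes at -0.93 and, the dimmest, -0.03. Of 22 contractile genes, 8 were higher and 5 lower, with calponin 1 (Cnn1) at 0.97 (SE 0.085, adjusted p = 1.1e-07) and Fhl1 at -0.68 (SE 0.083, adjusted p = 6.8e-06).

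Cell cycle and mitosis genes were higher in TAF-el4 for 38 of 51 and lower for 1, with a median of 0.36. The differences were small and 1 member, Rrm2, the small subunit of the enzyme that makes deoxyribonucleotides, exceeded 2-fold, with -0.12, -0.03 and 0.03 on the TAF-el4 arrays, against -1.18, -1.01 and -1.67 on the TAF-tib48 arrays. Its difference was 1.25 (SE 0.106, adjusted p = 6.9e-08), and the large subunit Rrm1 differed by 0.79 (SE 0.097, adjusted p = 7.5e-06). The spindle checkpoint kinase Bub1 differed by 0.82 (SE 0.114, adjusted p = 2.9e-05), the mitotic kinesin Kif20a by 0.69 (SE 0.108, adjusted p = 1.0e-04) and the cyclin-dependent kinase Cdk1 by 0.42 (SE 0.089, adjusted p = 0.00168), and the last 2 were not called with the slide run as a block. A second and dimmer Cdk1 probe differed by -0.04. The lower member was the cyclin Ccnd2, at -0.45 (SE 0.054, adjusted p = 5.5e-06), with other probes at -0.06 and -0.25.

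TAF-tib48 replicate 3 was the lowest array for each of Rrm2, Rrm1, Bub1, Kif20a and Cdk1, for example -0.29, -0.11 and -0.81 in TAF-tib48 for Kif20a beside 0.28, 0.28 and 0.29 in TAF-el4. Without it 32 cell cycle genes were called higher and 2 lower, with a median of 0.245, and with the slide run as a block 9 were called higher and 1 lower, with a median of 0.347. Cell cycle inhibitors and p53 targets were also higher more often than lower, 14 against 6 of 36 (median 0.12). Gadd45g differed by 0.99 (SE 0.061, adjusted p = 9.9e-10) and the p53 target Cdkn1a by 0.62 (SE 0.054, adjusted p = 8.7e-08), while Gadd45a was lower at -0.88 (SE 0.055, adjusted p = 1.1e-09).

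**Figure D3:**
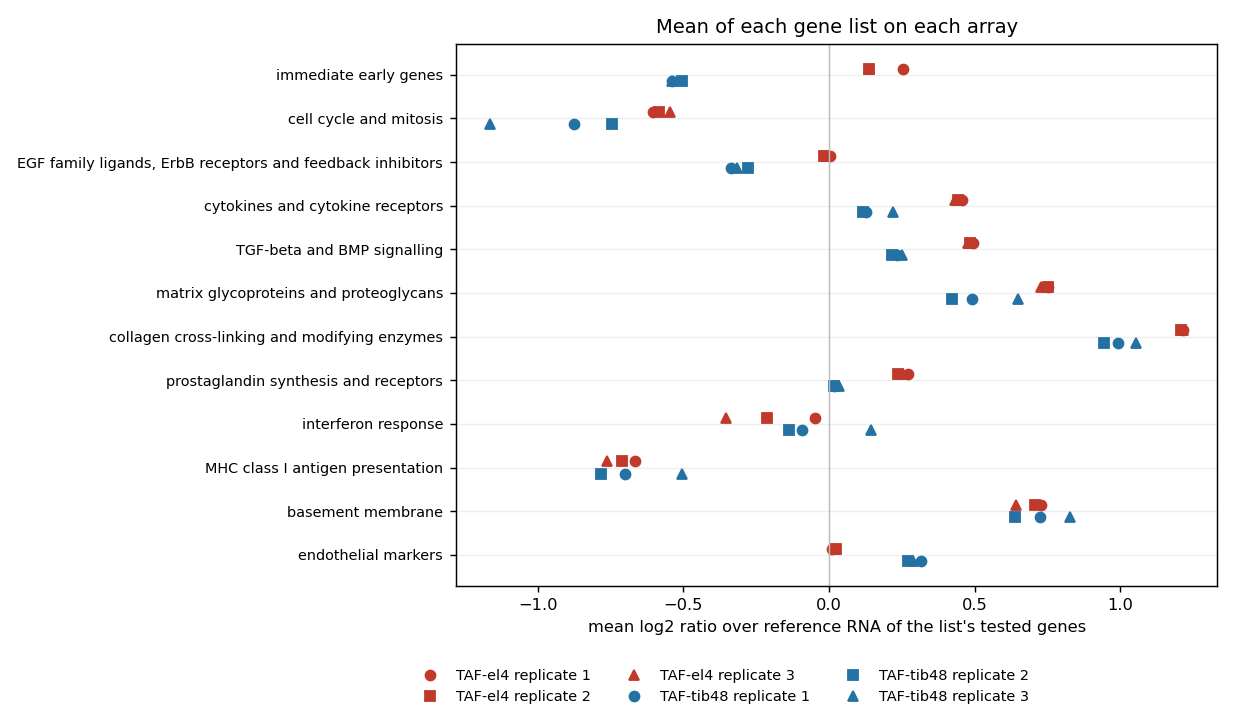
Mean log2 ratio over reference RNA of the tested genes of 12 lists (horizontal axis), with 1 point for each of the 3 TAF-el4 and 3 TAF-tib48 arrays. TAF-tib48 replicate 3 lies farthest left for cell cycle genes and farthest right for interferon response and class I genes.

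Interferon response genes were lower in TAF-el4 for 19 of 41 and higher for 0 in the limma fit, with a median of -0.18 and no member at 2-fold. At an unadjusted p under 0.05, 23 were lower and 1 was higher, beside 10800 of all 31262 genes in either direction. Ifit1, which binds foreign RNA, had 0.24, -0.30 and -0.71 on the TAF-el4 arrays, against 0.48, 0.34 and 0.96 on the TAF-tib48 arrays. The arrays of each source spread over 0.6 to 1.0 log2 units for this gene without overlapping, and the difference was -0.85 (SE 0.171, adjusted p = 0.00112). Usp18, which removes the ubiquitin-like modifier Isg15 from proteins, had -1.24, -1.67 and -1.97 on the TAF-el4 arrays, against -1.06, -1.11 and -0.83 on the TAF-tib48 arrays, a difference of -0.63 (SE 0.126, adjusted p = 0.00113). Oasl2 differed by -0.58 (SE 0.155, adjusted p = 0.0107), the export factor Rtp4 by -0.57 (SE 0.178, adjusted p = 0.0265) with 1 TAF-tib48 spot left out as an outlier, and Isg15 by -0.40 (SE 0.169, adjusted p = 0.102), without a call.

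The list mean per array was -0.35 to -0.05 in TAF-el4 and -0.14 to 0.14 in TAF-tib48, so the sources overlapped. The count of lower genes was 7, with 1 higher, without TAF-tib48 replicate 3, and 8, with 2 higher, without TAF-el4 replicate 3. It was 12 without TAF-el4 replicate 2 or with the 6 arrays alone, 9 with median centring, 5 (and 1 higher) with the Cy5 channel alone and 10 with the slide run as a block. TAF-tib42 lay above both sources for these genes, with Ifit1 at 2.61, Usp18 at 0.50 and Oasl2 at 1.79.

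The core of the interferon-stimulated response element, GAAANNGAAA, was searched on both strands in the same promoter windows, where matches may overlap each other. It was found in 13 of the 29 interferon response genes with a window (44.8%), in 6 of the 15 called lower (40.0%) and in 3.46% of 27025 genes. Stretches from 4 genes called lower are shown because they carry 1 or 2 matches, in capitals, read here on the strand of the gene, where the motif appears as its reverse complement; all 4 genes lie on the plus strand. Their places in GRCm38.p6 are chr19:34640770-34640828 for Ifit1, chr19:34583358-34583431 for Ifit3, chr3:142559984-142560029 for Gbp3 and chr10:128270261-128270300 for Stat2.
Ifit1: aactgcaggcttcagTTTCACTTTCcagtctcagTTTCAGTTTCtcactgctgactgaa
Ifit3: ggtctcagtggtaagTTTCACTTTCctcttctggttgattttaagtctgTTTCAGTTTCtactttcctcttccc
Gbp3: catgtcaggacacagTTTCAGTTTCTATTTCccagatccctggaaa
Stat2: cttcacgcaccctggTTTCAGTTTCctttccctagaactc
None of these windows holds a CArG box. Ifit3, a partner of Ifit1, differed by -0.42 (SE 0.096, adjusted p = 0.00322), the interferon signalling factor Stat2 by -0.32 (SE 0.093, adjusted p = 0.0167) and the guanylate-binding protein Gbp3 by -0.44 (SE 0.157, adjusted p = 0.0487), with arrays of the last 2 overlapping between the sources. Stat2, Gbp3, Oasl2 and Rtp4 were no longer called without TAF-el4 replicate 3 or without TAF-tib48 replicate 3, when Gbp3 differed by -0.21 and -0.24 and Rtp4 by -0.41 and -0.19.

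Antigen presentation by major histocompatibility complex (MHC) class I followed with 8 of 20 genes lower in TAF-el4 and 1 higher (median -0.07). The class I genes H2-T23 and H2-Q7 differed by -0.40 (SE 0.089, adjusted p = 0.00279) and -0.37 (SE 0.077, adjusted p = 0.00143). No member was called lower with the slide run as a block, 5 were without TAF-el4 replicate 3, and class I genes are near-identical, so their probes may share signal. The exception was Psmb8, a subunit of the immunoproteasome, which was 2.27-fold higher in TAF-el4, with 0.28, 0.08 and 0.11 on the TAF-el4 arrays, against -1.21, -1.21 and -0.66 on the TAF-tib48 arrays and a second probe at 1.03. Of 6 genes of the p200 family, Ifi205 and Ifi204 were higher, at 0.77 and 0.35, and Ifi202b lower, as given above. Other Ifi204 probes differed by 0.40 and 0.37, whereas a second and dimmer Ifi205 probe differed by -0.05.

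Endothelial marker genes were lower in TAF-el4 for 10 of 22 and higher for 1 (median -0.15). Emcn, the endothelial sialoglycoprotein endomucin, had 0.11, 0.24 and 0.16 on the TAF-el4 arrays, against 2.13, 2.15 and 1.85 on the TAF-tib48 arrays. TAF-tib48 stood apart, 3.67-fold above TAF-el4 with a difference of -1.88 (SE 0.061, adjusted p = 2.3e-13), and the other 3 sources lay between 0.05 and 0.26. Cdh5, the adhesion molecule of endothelial junctions, had 0.17, 0.14 and 0.20 on the TAF-el4 arrays, against 0.74, 0.81 and 0.68 on the TAF-tib48 arrays, a difference of -0.58 (SE 0.052, adjusted p = 1.4e-07), with a second and dimmer probe at -0.20. The transcription factor Erg differed by -0.65 (SE 0.073, adjusted p = 2.2e-06), with a second and dimmer probe at -0.12, Egfl7 by -0.51 (SE 0.048, adjusted p = 2.5e-07), Icam2 by -0.46 (SE 0.064, adjusted p = 2.9e-05) and the angiopoietin receptor Tek by -0.38 (SE 0.047, adjusted p = 8.0e-06).

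For Emcn, Cdh5, Erg, Egfl7 and Icam2 the TAF-tib48 mean was the highest of the 5 sources. The lower calls also include Cd34, at -0.84, which the list of fibroblast markers holds too. Pecam1, Kdr, Vwf and Cldn5 were among the 11 members of the list that limma did not call (adjusted p = 0.323, 0.832, 0.792 and 0.524). Their source means lay between -0.14 and 0.17 in TAF-el4 and between -0.03 and 0.18 in TAF-tib48. Ecscr, an endothelial surface protein, was higher in TAF-el4 at 1.13 (SE 0.087, adjusted p = 1.8e-08). The list mean per array was 0.01 to 0.02 in TAF-el4 and 0.27 to 0.32 in TAF-tib48, without overlap, and 9 genes were called lower with the slide run as a block.

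Angpt2, Ptprb and Aqp1, known from vessels, lay outside that list and were chosen from the lowest in TAF-el4. Angpt2, the ligand that destabilises vessels through Tek, had 0.01, -0.06 and -0.06 on the TAF-el4 arrays, against 2.37, 2.07 and 3.05 on the TAF-tib48 arrays, a 5.81-fold difference of -2.54 (SE 0.149, adjusted p = 5.2e-10). Ptprb, a receptor phosphatase of endothelium, had 0.79, 0.69 and 0.78 on the TAF-el4 arrays, against 2.75, 2.85 and 2.69 on the TAF-tib48 arrays, and its difference was -2.01 (SE 0.058, adjusted p = 6.8e-14). The water channel Aqp1 differed by -1.79 (SE 0.08, adjusted p = 1.5e-11). TAF-tib42 shared the high Ptprb of TAF-tib48, at 2.17, but not its Angpt2, at -0.03. Pericyte and smooth muscle markers were lower for 5 of 13 and higher for 2, with Notch3 at -0.96 (SE 0.06, adjusted p = 1.3e-09) and Mcam at -0.68 (SE 0.088, adjusted p = 1.5e-05), where a second and dimmer Mcam probe differed by -0.22. Their list mean was 0.14 to 0.17 in TAF-el4 and 0.26 to 0.30 in TAF-tib48. The part of other cells in these differences was not tested.

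**Figure D4:**
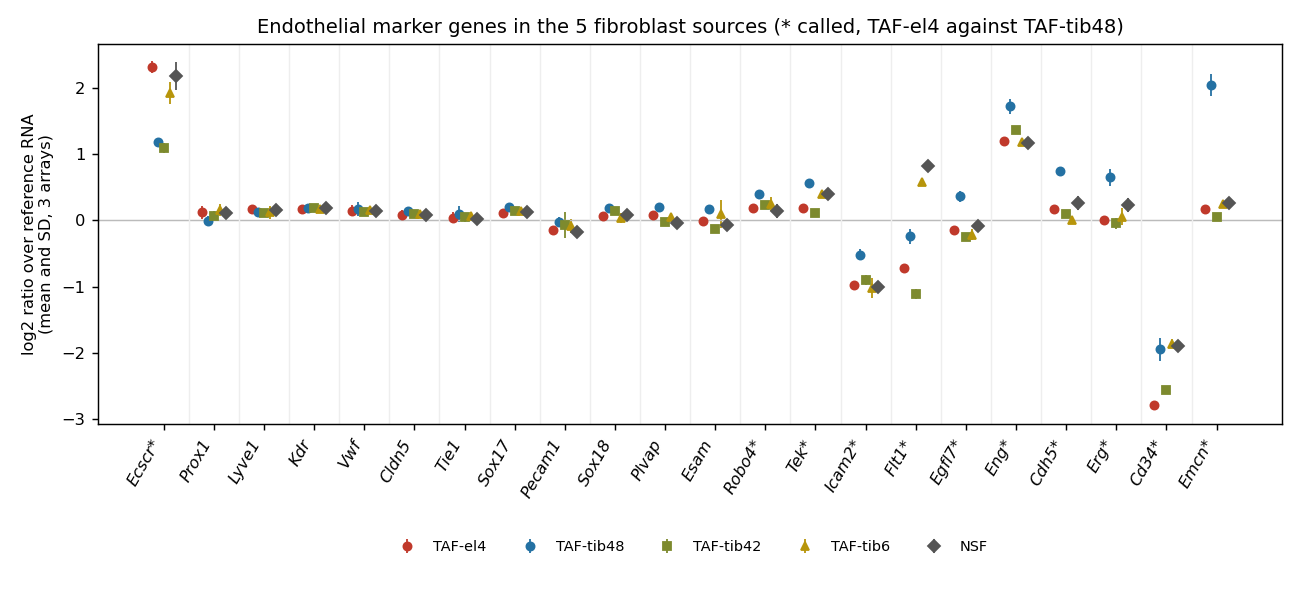
Log2 ratio over reference RNA (vertical axis, mean and SD of 3 arrays) of the 22 endothelial marker genes in the 5 sources, ordered from the most higher to the most lower in TAF-el4 against TAF-tib48. TAF-tib48 is the highest source for Emcn, Cdh5, Erg, Egfl7 and Icam2, while Kdr, Vwf and Cldn5 lie at about the same ratio in all sources.

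Growth factors of the PDGF, VEGF and FGF families and their receptors were higher in TAF-el4 for 8 of 31 genes and lower for 3 (median 0.004), so that the lower share and the median were near those of all genes (9.73% and 0.007). Vegfc, a growth factor of lymphatic vessels, had 0.17, 0.16 and 0.29 on the TAF-el4 arrays, against -0.64, -0.69 and -0.66 on the TAF-tib48 arrays, a difference of 0.87 (SE 0.044, adjusted p = 5.8e-11) with no overlap, and the fibroblast growth factor Fgf7 differed by 0.69 (SE 0.048, adjusted p = 4.3e-09). Vegfa had 0.22, 0.24 and 0.10 on the TAF-el4 arrays, against 0.07, -0.07 and 0.10 on the TAF-tib48 arrays, which nearly met, and its small difference of 0.15 (SE 0.048, adjusted p = 0.0245) was not called without TAF-tib48 replicate 2 (0.10) or TAF-el4 replicate 1 (0.14) or 2 (0.13). Its 2 other probes differed by 0.23 and 0.54.

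Pdgfc, a ligand of the PDGF receptors, had -0.32, -0.29 and -0.19 on the TAF-el4 arrays, against -0.08, -0.06 and -0.36 on the TAF-tib48 arrays. The arrays overlapped and the difference of -0.10 (SE 0.064, adjusted p = 0.299) was not called, with a second probe at -0.22. Pdgfa differed by 0.38 (SE 0.053, adjusted p = 2.9e-05), its receptor Pdgfra by 0.38 (SE 0.082, adjusted p = 0.00216), which was not called with the Cy5 channel alone, and Pdgfrb by -0.38 (SE 0.067, adjusted p = 3.4e-04). A second and dimmer Pdgfra probe differed by -0.05. Mela, a melanoma antigen by its description on the array, was high in both sources, at 0.26 ± 0.02 in TAF-el4 and 0.90 ± 0.22 in TAF-tib48 (SD, n = 3 each), as in TAF-tib42 at 0.66, while TAF-tib6 and NSF lay at -4.24 and -4.45. Within the resistant sources it was lower in TAF-el4 than in TAF-tib48, a difference of -0.64 (SE 0.077, adjusted p = 5.4e-06), with its spot saturated on 1 TAF-tib48 array. Among 14 angiogenesis inhibitors 3 were higher, led by Thbs1, and 5 lower, among them Col18a1, Timp2 at -0.71 and Tnmd at -0.73.

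Stress programmes were divided. Calls in either direction made up 57.6% of the heat shock list, 71.4% of the oxidative stress list and 58.1% of the hypoxia list. Over all genes the share was 23.8%. Of 33 heat shock and unfolded protein response genes, 9 were higher in TAF-el4 and 10 lower, or 11 and 10 without TAF-tib48 replicate 2. The lower ones were led by Ddit3 (CHOP), with -0.13, -0.13 and -0.19 on the TAF-el4 arrays, against 0.84, 0.76 and 0.80 on the TAF-tib48 arrays and a difference of -0.95 (SE 0.039, adjusted p = 5.4e-12), and by Trib3 at -0.88 (SE 0.066, adjusted p = 1.2e-08), with a second probe at -0.44. The chaperones Hsph1 and Hspb1 were higher, at 0.73 (SE 0.081, adjusted p = 2.0e-06) and 0.63 (SE 0.076, adjusted p = 5.3e-06). Of 35 genes of oxidative stress and NRF2, 16 were higher and 9 lower, with the microsomal glutathione transferase Mgst1 at 1.54 (SE 0.087, adjusted p = 3.1e-10), a second probe of it at 2.14, and the retinal dehydrogenase Aldh1a3 at -1.08 (SE 0.053, adjusted p = 3.7e-11). Of 31 hypoxia and glycolysis genes, 9 were higher and 9 lower, with Eno2 at 0.94 (SE 0.055, adjusted p = 5.0e-10) and the oxidoreductase Ero1a at -0.93 (SE 0.062, adjusted p = 3.1e-09).

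Among 59 transcription factors of mesenchymal lineages, 11 were higher in TAF-el4 and 9 lower, or 8 and 9 with the Cy5 channel alone and 6 and 8 with the slide run as a block. Twist1, a regulator of mesenchymal identity, had 1.195, 1.22 and 1.199 on the TAF-el4 arrays, against -0.66, -0.61 and -0.25 on the TAF-tib48 arrays, a 3.27-fold difference of 1.71 (SE 0.081, adjusted p = 2.6e-11). Snai1, which represses epithelial genes, differed by 1.09 (SE 0.051, adjusted p = 2.4e-11), with TAF-el4 the highest and TAF-tib48 the lowest of the 5 sources. Gata6 was lower at -1.05 (SE 0.061, adjusted p = 5.0e-10), with dimmer probes at -0.23 and -0.02. Meox2 was lower at -1.03 (SE 0.086, adjusted p = 5.3e-08), but its difference was -0.32 and not called with the scanner's own log ratio.

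Markers of other cell types that a culture could hold were tested as well. Calls in either direction made up 11.8% of macrophage markers and 22.7% of lymphocyte and lymphoma markers. Over all genes tested the share was 23.8%. Macrophage markers were called higher for 2 of 17, the lysozymes Lyz2 (0.78, with a second and dimmer probe at -0.03) and Lyz1 (0.30), and lower for 0. At an unadjusted p under 0.05, limma had 3 of these markers higher and 2 lower, beside 10800 of all 31262 genes in either direction. The mean log2 ratio of the macrophage markers was -0.91 to -0.83 on the TAF-el4 arrays and -0.90 to -0.85 on the TAF-tib48 arrays. Lymphocyte and lymphoma markers were higher for 1 of 22 and lower for 4 (2 without TAF-tib48 replicate 2 or 3 or TAF-el4 replicate 1 or 2), with means of -0.88 to -0.84 in TAF-el4 and -0.91 to -0.76 in TAF-tib48.

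Adipocyte markers were divided, with 3 of 18 higher, among them Fabp4 and the adipocyte regulator Pparg at 0.69 (SE 0.06, adjusted p = 1.5e-07), and 3 lower. Epithelial markers were higher for 3 of 22 and lower for 5; the keratins Krt18 and Krt8, of simple epithelia, lay far below the reference, Krt18 at -4.77 in TAF-el4 and -4.31 in TAF-tib48 and Krt8 at -3.93 in TAF-el4 and -3.59 in TAF-tib48. Among 19 cartilage and bone markers, 4 were higher, Alpl, Spp1, Runx2 and Sp7, and 3 lower. The other Runx2 probes differed by 0.36, 0.05 and -0.20, the last 2 being dimmer. Fibroblast markers were higher for 8 of 22 and lower for 3 (5 without TAF-tib48 replicate 1), with Pdpn at 0.61 (SE 0.048, adjusted p = 2.3e-08) and Cd34 at -0.84 (SE 0.066, adjusted p = 2.3e-08). Among the 7 sex-linked genes tested, limma called 0, and 1 had an unadjusted p under 0.05. Over all 31262 genes, 23.8% were called and 10800 had an unadjusted p under 0.05.

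**Figure D5:**
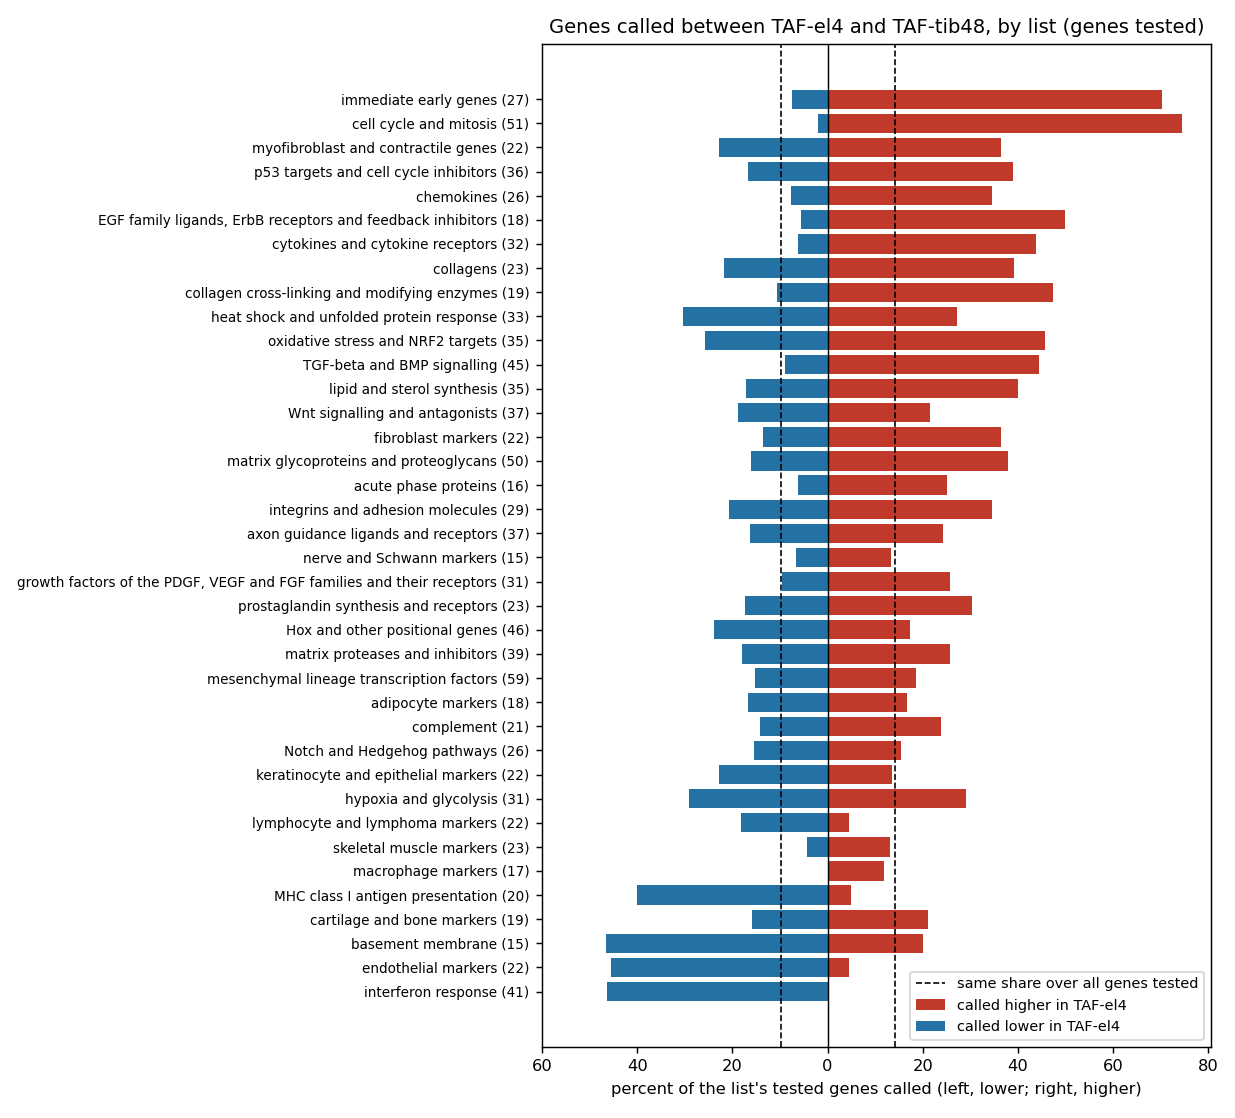
Percent of each list's tested genes that limma called higher (right) or lower (left) in TAF-el4 against TAF-tib48, for the lists with at least 15 genes tested (number in brackets), ordered by median difference. Dashed lines mark the shares over all genes tested, 14.1% higher and 9.73% lower; immediate early and cell cycle genes reach farthest to the right, and interferon response, endothelial and basement membrane genes farthest to the left.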

How the data were processed

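Per the file headers and the labels, RNA was amplified and hybridised to Agilent 2-colour mouse arrays, 1 per slide, with fibroblast RNA in Cy5 and reference RNA in Cy3. The file headers and the submitters' processing notes name Feature Extraction 8.5.1.1 as the software that read the scans, while a protocol label names another version. The deposited files give the mean and background intensity of each spot in each dye, without normalization, and a log10 ratio that the scanner software had background-subtracted and dye-normalized, per the file headers. The authors' deposited table holds log2 ratios that equal the scanner's after conversion (slope 1 on every array), with column medians of 0.0338 to 0.046 on the 6 arrays compared. No source used here gives the array's genome build.

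Intensities were corrected with normexp (offset 50), normalized by loess within arrays and fitted with limma 3.58.1 in R 4.3.3, with a mean for each of the 5 sources over all 15 arrays, so that the sources share an estimate of the spread. Two-sided p-values were adjusted over all 31262 genes (Benjamini-Hochberg), and calls needed an adjusted p under 0.05. Spots marked as outliers were left out. A gene is its brightest probe, kept where Cy5 was well above background on all 3 arrays of at least 1 source. Of 41174 probes, 22072 were named through RefSeq accessions, 1560 through their description, and 17542 kept the file's name. On simulated data, limma called 74% of 50 genes changed 1.2-fold and 100% of those changed 1.5-fold, 2-fold or 4-fold, with 10 false calls among 30639 genes. How differences between slide runs would change these shares and the false calls was not tested. The effect of a spread that differs between sources, as seen for F3, Dio3, Cpxm1 and Hp, was not tested either. Precision is limited by the number of arrays.

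The text names the 15 highest and 15 lowest called genes without overlap that have a gene symbol, up to 4 called members of each list with the largest difference, 4 genes of interest in tumour fibroblasts, marker genes, and genes from 40 added after their values were seen; some that the rule picks are not reported here. Other members named in passing were chosen after their values were seen too. The comparison, its gene lists and its tests were chosen with earlier results of these data known. Alternatives changed the source of the log ratios, the normalization, background correction, filter, probes, arrays, replicate numbers or slide runs, and left out each array in turn; the slide run as a random block was added after seeing the data. Same-numbered arrays of both sources deviated from their means with correlations of 0.067, -0.03 and -0.082, so the numbers were not treated as pairs. No array pair of a source held identical values.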

Additional observations from a re-analysis of the deposited data

How the results depend on the processing

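All 193 genes at least 2-fold different stayed called under every alternative except the stricter filter, which tested 190 of them, the scanner's and the authors' log ratios (192 each) and the slide run as a block (191). The number of genes called and at least 2-fold different was 394 with the scanner's log ratio and 393 with the authors' deposited table, against 193. Over 207 called genes among the 222 examined singly, differences with either were a median of 1.09 times as large. That median was not taken over all genes. The number called at any size was 2798 with the slide run as a block, against 7447. With that block the comparison rests on 1 array of each source, and the cause of the lower count was not tested. Leaving out 1 array at a time gave 5947 to 6870 genes called and 192 to 206 at least 2-fold. With the replicate number as a block, 7160 genes were called and 193 at least 2-fold, and that pairing ended the calls of Gbp3 and Ednrb among the 222 genes examined singly. Of those 222, direction and call held for 189 to 222 in every setting. The difference turned for Ncam1 and Rag1 with the Cy5 channel alone (-0.219 and -0.088) and for Ttn with the mean of all probes (-0.033); the cause was not tested. The scanner's log ratio moved Serpinb2 to 2.18, Erg to -1.59, Tnmd to -1.96, Col15a1 to -2.31, Ccl27a to 1.25 and Saa3 to 1.81. Of 46 lists, 26 had a count of calls in 1 direction that changed by over 1.5 times with the slide run as a block, 13 with the Cy5 channel alone, 9 with median centring and 0 to 5 in each other setting. Whether higher or lower calls outnumbered the other turned for 7 lists with the slide run as a block, 6 with the Cy5 channel alone and 0 to 2 in each other setting, the Wnt list most often. Signal over background limits the dim genes, whose ratios shrink towards 0.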

Other observations

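Further signalling and positional lists held calls in both directions; over all genes tested, 14.1% were called higher in TAF-el4 and 9.73% lower. Of 37 Wnt pathway genes, 8 were higher in TAF-el4 and 7 lower. Lower calls outnumbered higher ones with log ratios scaled between arrays (7 higher, 8 lower), with no background subtraction (5 and 8), with the Cy5 channel alone (5 and 6), with the mean of all probes (7 and 9), with the slide run as a block (3 and 5), and without any one TAF-el4 array or TAF-tib48 replicate 2 or 3, so the list had no settled direction. The secreted Wnt antagonist Sfrp1 differed by 0.76 (SE 0.116, adjusted p = 7.8e-05), with a second and dimmer probe at 0.25, whereas Dkk3 and the Wnt amplifier Rspo2 differed by -0.96 (SE 0.075, adjusted p = 2.0e-08) and -0.84 (SE 0.059, adjusted p = 4.9e-09). Of 26 Notch and Hedgehog genes, 4 were higher and 4 lower (2 lower without TAF-el4 replicate 3), the higher share being near that of all genes. Gas1, a Hedgehog co-receptor, had -0.88, -0.94 and -1.02 on the TAF-el4 arrays, against -2.37, -2.41 and -1.55 on the TAF-tib48 arrays, with TAF-tib48 replicate 3 nearest to TAF-el4, and the Notch ligand Jag1 differed by -0.58 on its brightest probe and by -0.07 on a second. Of 37 axon guidance genes, 9 were higher, among them the ephrin Efnb2 at 0.95 (SE 0.074, adjusted p = 2.1e-08), with a second and dimmer probe at 0.06, and the netrin receptor Unc5b at 0.93 (SE 0.083, adjusted p = 1.2e-07). The other 6 called were lower (3 without TAF-tib48 replicate 3), among them the semaphorin receptor Plxna2 at -0.73 (SE 0.052, adjusted p = 6.8e-09).

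Of 46 Hox and other positional genes, 8 were higher and 11 lower, none at 2-fold, against 8 and 7 with the Cy5 channel alone and 6 and 3 with the slide run as a block. Pitx1, a regulator of hindlimb identity, had 1.08, 0.98 and 1.06 on the TAF-el4 arrays, against 0.17, 0.22 and 0.28 on the TAF-tib48 arrays, and TAF-el4 was the highest source. Hoxa11 had -0.85, -0.76 and -0.76 on the TAF-el4 arrays, against -0.09, -0.01 and -0.10 on the TAF-tib48 arrays, and TAF-tib48 was the highest source. Of 35 lipid and sterol genes, 14 were higher and 6 lower (3 without TAF-el4 replicate 1 or 3), with the sterol enzyme Dhcr7 at 0.66 (SE 0.047, adjusted p = 6.0e-09) and a second, dimmer probe of it at 0.07. Of 14 insulin-like growth factor genes, 1 was higher and 4 lower. Skeletal muscle markers were higher for 3 of 23 and lower for 1, both below the shares of all genes (2 and 3 with the Cy5 channel alone), with Acta1 at 0.93 (SE 0.107, adjusted p = 3.1e-06).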
